A study of Mus musculus with 14 samples.

Results

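The genes described here are 10 neuropeptide precursors, *Sst*, *Pnoc*, *Penk*, *Adcyap1*, *Npy*, *Cartpt*, *Nts*, *Grp*, *Cck* and *Crh*, out of the 31054 genes counted in single cells of the mouse hindbrain. They were taken by name, and each was found once in the gene list of all 14 libraries. The cells were sorted to enrich descendants of *Atoh1*-expressing cells of the rhombic lip, the dorsal edge of the embryonic hindbrain. The rhombic lip gives rise to the pontine nuclei (PN), to cerebellar granule cells and unipolar brush cells, and to several other hindbrain neurons. The sorted cells also held microglia-like, glia-like, oligodendrocyte lineage-like and inhibitory neuron-like ones, whose descent was not tested.

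A neuropeptide is made as a large precursor, cut by prohormone convertases inside secretory granules and released from dense-core vesicles, usually by neurons that also release a fast transmitter such as glutamate or GABA. The released peptide acts on G protein-coupled receptors, over longer distances and times than a fast transmitter. PN neurons are glutamatergic and relay cortical signals to the cerebellum as mossy fibers, and unipolar brush cells are glutamatergic interneurons of the cerebellar granular layer and the cochlear nucleus.

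At E14.5 and at E18.5 there were 3 control libraries (*Atoh1*Cre/+; *Rosa*lsl-tdTomato/+) and 3 *Atoh1*S193A/- libraries (*Atoh1*Cre/S193A; *Rosa*lsl-tdTomato/+), each from the hindbrain of 1 embryo, and a mutant was collected together with a littermate control, so that embryos of 1 replicate number are treated as littermates here. Cre replaces the coding region of *Atoh1*, so the controls also lacked 1 copy of the gene and the comparison is between a wild-type and a phospho-mutant remaining copy. At P5 there were 2 control libraries, each from pontine nuclei dissected and pooled from 11 to 13 pups. All animals were C57BL/6J, and living tdTomato+ cells were sorted before 10x 3′ sequencing. The reporter marks any cell that once expressed Cre from the *Atoh1* locus, at any earlier time.

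A total of 80250 cells of 150188 barcodes passed the limits on genes, mitochondrial RNA and doublets, with 3248 to 8726 cells per library and a median of 12010.5 to 20913 unique molecules (UMIs) per cell. Libraries shared 13 to 67 barcodes, 0.163% to 0.624% of the smaller library. The mutation changes a codon and removes no RNA, so *Atoh1* counts do not check the genotype labels. The labels call the cells neurons, but the 10 microglial markers summed to 1008 and 1030 CPM (the UMIs of a gene scaled to the same total in every sum of cells) in the P5 libraries, against 6.09 to 54.3 CPM in the 12 embryonic ones, and 935 of 14006 P5 cells were microglia-like. Microglia are not a known source of these peptides, and their UMIs of the 10 genes are read as the level of free RNA. The 27 microglia-like cells of E14.5 held at most 2 UMIs of any of the 10 genes, and 0 of 23 thinned cells had one, which allows a share of up to 14.82% (exact 95% interval). The 37 cells of E18.5 held at most 1 UMI of each gene other than *Nts*, and the 935 of P5 held 0 of *Cartpt* and *Crh* and 6 of *Cck*. Clusters were formed without the 10 genes, named "X-like" from fixed markers, and otherwise called by number and leading genes.

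All positions are on GRCm38 in the GENCODE M21 annotation. *Sst* (ENSMUSG00000004366) lies at chr16:23889573-23890958 on the minus strand, *Pnoc* (ENSMUSG00000045731) at chr14:65400673-65425472, *Penk* (ENSMUSG00000045573) at chr4:4133531-4138819, and *Adcyap1* (ENSMUSG00000024256) at chr17:93199017-93206537. *Npy* (ENSMUSG00000029819) lies at chr6:49822710-49829507, *Cartpt* (ENSMUSG00000021647) at chr13:99898489-99901091, *Nts* (ENSMUSG00000019890) at chr10:102481756-102490486, *Cck* (ENSMUSG00000032532) at chr9:121489824-121495694, and *Crh* (ENSMUSG00000049796) at chr3:19693401-19695396. *Grp* is ENSMUSG00000024517. No 2 of the genes with a position given share a chromosome.

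Several of these genes are textbook targets of the cAMP-responsive factor CREB, which binds TGACGTCA. RefSeq promoter windows of GRCm38.p6 were found for *Sst*, *Adcyap1*, *Npy*, *Cartpt*, *Nts* and *Cck*. Within the 250 bases before the start, TGACGTCA was present in 2 of these 6 genes and in 1.6244% of 27025 promoters, with both strands searched. The shorter TGACG, which is also part of the full element, was present in 5 of 6 genes and in 17.8612% of all promoters, and CAGCTG, an E-box of the kind ATOH1 binds, in 1 of 6 (*Nts*) and in 12.766%. The promoters of *Sst* and *Cartpt* are printed because both hold the full element. In sums over all sorted control cells the genes went opposite ways between E14.5 and E18.5. Within PN-like cells *Sst* rose (log2 change 2.57), and *Cartpt* was not tested there. Each runs 5′ to 3′ toward the start of its gene on the minus strand, at chr16:23890845-23891094 and chr13:99900684-99900933, and capitals mark TGACGTCA, which begins 48 bases before the start in *Sst* and 112 in *Cartpt*. The start is the one RefSeq gives. By the GENCODE M21 positions above, the whole *Cartpt* window and the part of the *Sst* window that holds the marked element lie inside the annotated gene.
Sst: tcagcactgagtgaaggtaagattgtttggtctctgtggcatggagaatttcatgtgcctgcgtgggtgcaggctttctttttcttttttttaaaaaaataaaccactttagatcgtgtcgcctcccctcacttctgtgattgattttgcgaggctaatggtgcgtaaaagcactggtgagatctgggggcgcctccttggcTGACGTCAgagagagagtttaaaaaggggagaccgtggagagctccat
Cartpt: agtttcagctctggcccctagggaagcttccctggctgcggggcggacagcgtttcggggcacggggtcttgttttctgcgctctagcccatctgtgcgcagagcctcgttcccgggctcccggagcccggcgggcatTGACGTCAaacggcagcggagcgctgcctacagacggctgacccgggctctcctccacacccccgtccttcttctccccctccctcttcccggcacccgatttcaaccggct

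The 10 genes divided among the cell classes of the sorted hindbrain. *Sst*, the precursor of somatostatin, was highest in unnamed E14.5 clusters and then in PN-like neurons at P5, and *Adcyap1* in the unnamed E14.5 cluster 19 (316 CPM) and in migrating PN-like neurons (273 CPM). *Pnoc*, *Npy* and *Penk* were highest in inhibitory-like or unnamed clusters, and *Cck* in Lhx2/Lhx9 neuron-like and unnamed ones. *Cartpt* and *Nts* were highest in the granule lineage at E18.5, and *Grp* in unipolar brush cell-like cells at E18.5 and P5. *Crh* was low wherever it was measured in numbers, at most 60.9 ± 23.0 CPM (SD, n = 3) in a pontine subtype.

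**Figure D1:**
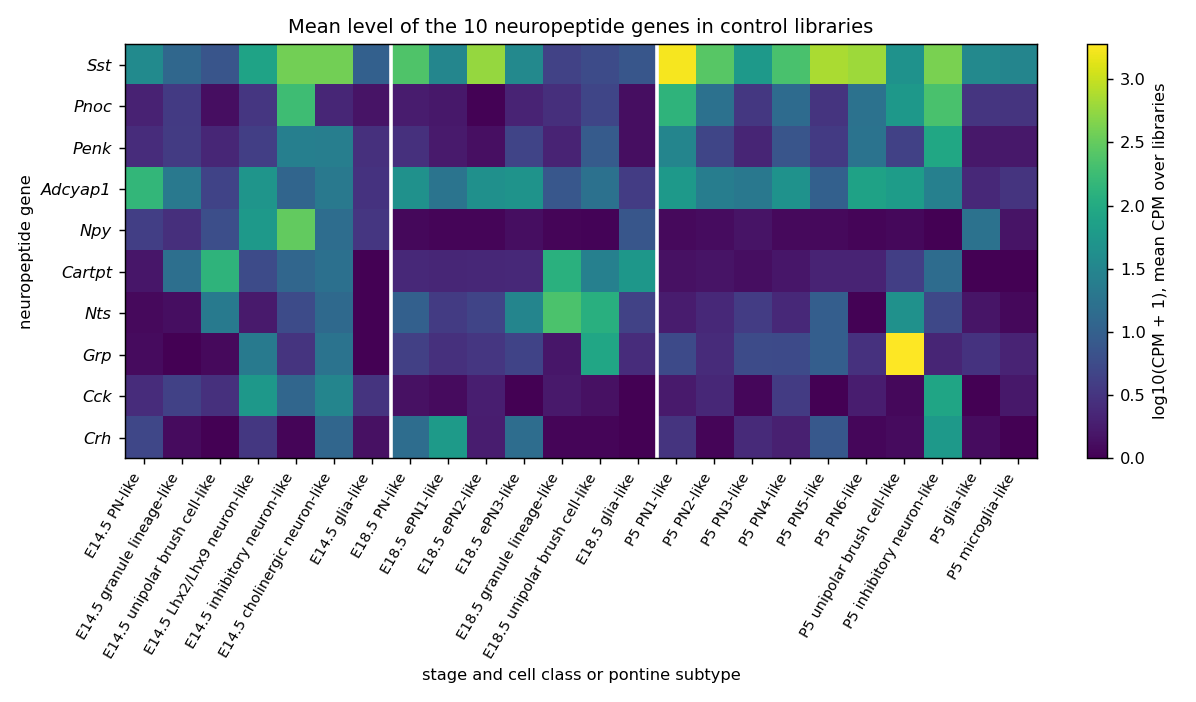
Mean level of each gene (vertical) in control libraries by stage and cell class or pontine subtype (horizontal), as log10(CPM + 1) of the mean over libraries with at least 20 cells of that class. *Sst* stands out in P5 PN1-like neurons (1735 CPM) and *Grp* in P5 unipolar brush cell-like cells (1897 CPM). *Adcyap1* has 149 CPM in E14.5 PN-like cells as a class and 273 CPM in their migrating neuron-like state.

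*Sst* was examined first along the pontine lineage, where cell states had been set from other genes. In control E14.5 libraries 1, 2 and 3 it stood at 2.20, 4.89 and 4.03 CPM in progenitor-like cells, 21.5, 18.3 and 39.0 in migrating neuron-like cells, and 55.3, 58.7 and 103.9 in differentiated neuron-like cells. These 3 states did not overlap.

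At E18.5 *Sst* was uneven among the PN-like subtypes. Control libraries held 654, 416 and 639 CPM in ePN2-like neurons, against 11.9, 76.7 and 5.65 in ePN1-like and 21.996, 24.3 and 56.2 in ePN3-like neurons. Every ePN2-like value lay above every value of the other pair of subtypes, which overlapped with each other. Migrating neuron-like cells stood at 82.2, 93.5 and 34.3 CPM. After thinning each cell to 3000 UMIs, 40.0% ± 5.20 (SD, n = 3) of ePN2-like neurons had a *Sst* UMI (58.8% before thinning), against 3.33% ± 3.25 of ePN1-like neurons. Of the 31 thinned microglia-like cells at this stage 0 had one, which allows a share of up to 11.2%.

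At P5 *Sst* was highest in PN1-like neurons, at 1562 and 1907 CPM in the 2 libraries. PN5-like neurons followed with 654 and 790 CPM and PN6-like with 581 and 659, and these 2 subtypes overlapped. PN2-like neurons held 290 and 240 CPM and PN4-like 207 and 221, a gap smaller than the difference between the PN2-like libraries. PN3-like neurons were lowest with 56.7 and 60.6 CPM. This order was not tested.

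PN1-like neurons were also highest by the share of cells with a UMI, but PN6-like neurons then lay above PN5-like ones, against their order in CPM, and no order of the pair is read. In thinned cells, 80.6% ± 4.34 (SD, n = 2) of PN1-like, 68.4% ± 0.768 of PN6-like, 44.5% ± 4.65 of PN5-like, 31.6% ± 0.686 of PN4-like and 30.1% ± 2.20 of PN2-like neurons had a *Sst* UMI. Of the thinned microglia-like cells, 88 of 895 had one, 9.83% (exact 95% interval 7.96% to 11.97%, counting error only), with a median of 10657 UMIs per cell before thinning. The microglia-like share differed between libraries, at 13.9% in library 1 and 3.00% in library 2. The PN3-like share was 11.5% in library 1, under that of the microglia-like cells, and 9.73% in library 2, above it, while the PN3-like level of 56.7 and 60.6 CPM was above the 44.2 and 15.4 CPM of microglia-like cells in both. Unipolar brush cell-like cells stood at 16.6% and 7.37% and inhibitory neuron-like cells, which held 423 and 415 CPM, at 17.6% and 6.67% (9 of 51 and 2 of 30 cells), values above the microglia-like share of the same library by differences that were not tested. Median UMIs before thinning were 6404 in unipolar brush cell-like, 16976.5 in inhibitory neuron-like and 25528 in PN3-like cells. Whether free RNA made up a like share of the UMIs in each class was not tested.

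**Figure D2:**
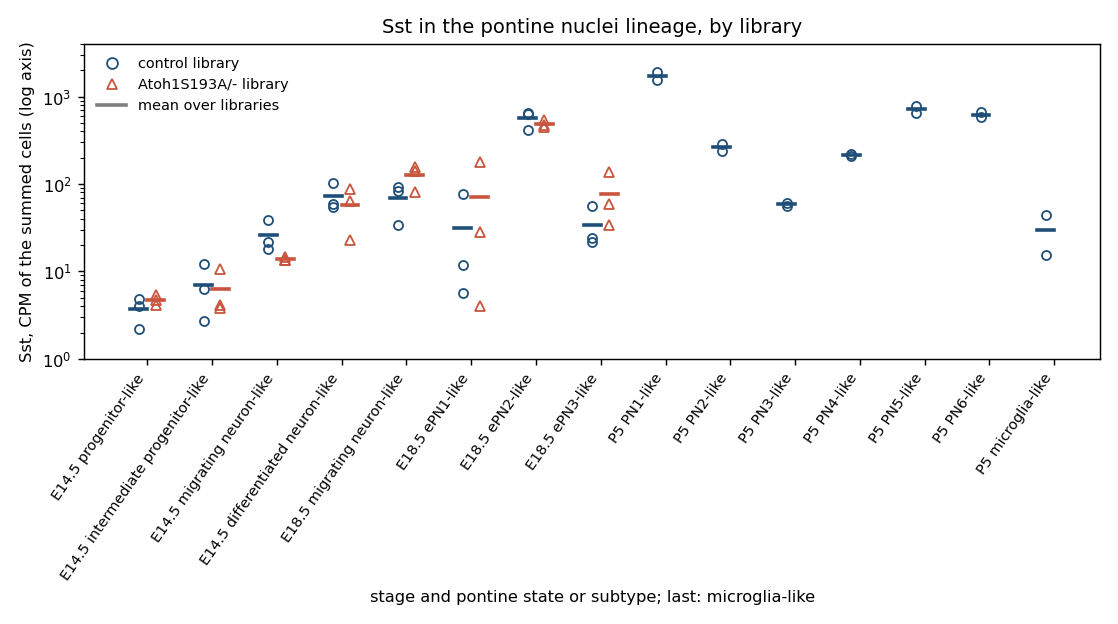
*Sst* level (vertical, CPM, log axis) in each library for pontine states and subtypes in order of stage (horizontal), with circles for control, triangles for *Atoh1*S193A/- and bars for the mean over the libraries drawn, including libraries with fewer than 20 cells. Levels run from about 3.71 CPM in E14.5 progenitor-like cells to 1735 CPM in P5 PN1-like neurons, with P5 PN3-like neurons at 58.6 CPM. Microglia-like cells of P5 sit at 44.2 and 15.4 CPM.

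*Sst*-positive PN1-like neurons also held RNA of other peptide genes. The subtype joined several smaller clusters, and *Sst* and *Pnoc* were both among the leading genes of those with 935 and 873 cells. Another, of 362 cells, was led by *Gm26917* and *Pfkp*. Of 2345 PN1-like cells 211 were left out of the thinning. The part of these smaller clusters in the shares below was not tested. At P5, 26.2% ± 3.16 (SD, n = 2) of thinned PN1-like cells with a *Sst* UMI also had a *Pnoc* UMI, against 9.38% ± 2.70 of those without. *Penk* was found in 8.68% ± 0.596 and 5.26% ± 0.548, and *Adcyap1* in 14.4% ± 3.38 and 12.7% ± 1.43, so only the *Pnoc* and *Penk* shares were apart by more than their spread. The vesicular glutamate transporter *Slc17a6* was found in 50.9% ± 6.39 of the *Sst*-positive cells, and the GABA-synthesis gene *Gad2* in 6.96% ± 0.148. In PN1-like cells the vesicular GABA transporter gene *Slc32a1* stood at 0.503 CPM and *Gad1* at 0.443, against 187 and 125 CPM in inhibitory neuron-like cells. Both genes are among the leading genes of that class, which was named from such markers, so this contrast was fixed in part by the naming. The inhibitory neuron-like cells also held *Slc17a6*, at 223 CPM against 237 in PN1-like cells.

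Outside the pontine lineage the highest *Sst* of the series was in E14.5 cluster 22, an unnamed cluster led by *C1ql1* and *Dlk1*. Its control libraries held 4012, 3244 and 2875 CPM and its mutant libraries 4574, 3695 and 3739. Cluster 15 (*Peg10*, *Adarb2*, *Pax5*) followed with 1843 ± 426 CPM (SD, n = 3 controls), and cluster 16 (*Gm32647*, *Lamp5*) with 1026 ± 300. Among control cells clusters 22, 15 and 16 held 26.7%, 18.7% and 16.8% of the *Sst* UMIs at E14.5, whereas PN-like cells, 20.2% of the cells, held 3.69%. At E18.5 PN-like cells were 11.3% of the cells and held 50.9% of the *Sst* UMIs.

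*Pnoc*, the precursor of nociceptin, was a gene of inhibitory neuron-like cells at E14.5. They held 225.5, 138 and 173 CPM in controls and 152.5, 100.4 and 138.5 in mutants, and in controls 76.2% of all *Pnoc* UMIs in 4.33% of the cells. At P5 inhibitory neuron-like cells held 356 and 77.4 CPM, from 52 and 31 cells, and unipolar brush cell-like cells 54.1 and 54.3. Among the pontine subtypes it was highest in the same one as *Sst*, with 129.97 and 143 CPM in PN1-like neurons against 11.2 to 21.2 CPM in the libraries of PN2-, PN4- and PN6-like neurons. PN3- and PN5-like neurons, at 0.918 to 3.38 CPM, overlapped the 1.24 and 3.05 CPM of microglia-like cells. After thinning, 22.9% ± 3.80 of PN1-like, 14.51% ± 1.66 of inhibitory neuron-like and 12.8% ± 0.776 of unipolar brush cell-like cells had a *Pnoc* UMI, against 0.670% of microglia-like cells.

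*Penk*, the enkephalin precursor, reached 88.1 ± 2.49 CPM (SD, n = 2) in P5 inhibitory neuron-like cells. PN1-like neurons held 28.7 and 31.7 CPM and PN6-like 15.9 and 17.6, and the remaining subtypes reached at most 6.41 CPM, against at most 1.29 CPM in microglia-like cells. Thus *Sst*, *Pnoc* and *Penk* were all highest, among the 6 pontine subtypes, in the PN1-like neurons.

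*Adcyap1*, which encodes the peptide PACAP, had another order. At E14.5 it stood in controls at 372, 205.7 and 243 CPM in migrating neuron-like cells, 173.5, 248 and 112.5 in differentiated neuron-like cells and 2.04, 11.5 and 0 in intermediate progenitor-like cells. Migrating and differentiated cells overlapped, and both lay above the progenitors in every library. A UMI was found in 51.8% ± 11.3 (SD, n = 3) of thinned migrating cells. Cluster 0, led by *Crabp1* and *Robo3*, made up 7.53% of E14.5 control cells and held 36.9% of the *Adcyap1* UMIs. At P5 it was highest in the unipolar brush cell-like cluster 5, at 83.1 and 96.6 CPM. The pontine order was PN6-like (69.9 and 82.3 CPM), PN1-like (49.5 and 63.7), PN4-like (43.0 and 49.5), PN2-like (23.0 and 24.0), PN3-like (18.49 and 19.9999) and PN5-like (10.3 and 8.13). PN1- and PN4-like neurons touched at 49.5 CPM, and the other neighbours did not overlap. All lay above the 3.05 CPM of microglia-like cells.

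*Npy*, neuropeptide Y, was highest in an inhibitory neuron-like cluster at E14.5. Cluster 18 (*Tfap2b*, *Pax2*, *Gad2*) held 544, 424 and 398 CPM in controls and 505, 88.2 and 334 in mutants. PN-like cells held 1.12, 6.88 and 1.00 CPM in controls. At E18.5 *Npy* was highest in the unnamed cluster 23 (*Meis2*, *Zfhx3*), at 8.76, 125 and 39.9 CPM in controls. At P5 the highest level was in glia-like cells, at 16.7 and 16.1 CPM, with 0 of 895 thinned microglia-like cells carrying a UMI, which allows a share of up to 0.411% (exact 95% interval).

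*Cartpt* and *Nts*, precursors of the CART peptide and of neurotensin, belonged to the granule lineage at E18.5, in different clusters. *Cartpt* was highest in cluster 16 (*Cxcl12*, *Nefm*, *Cadps2*), at 733, 799 and 1186 CPM in controls and 699, 1051 and 1405 in mutants, and granule lineage-like cells held 96.3% of its UMIs. *Nts* was highest in cluster 25 (*Rassf9*, *Olig2*), at 3393, 4766 and 3830 CPM in controls, and in the cycling clusters 26, 11 and 19, led by *Cenpa*, histone genes and *Cdc20*, at 837 ± 115, 835 ± 53.2 and 786 ± 266 CPM (SD, n = 3). Clusters 25, 11 and 19 were 1.21%, 3.86% and 3.01% of control cells, respectively, and held 29.6%, 26.5% and 20.3% of the *Nts* UMIs. In PN-like cells of E18.5 controls *Nts* stood at 14.49, 8.66 and 3.98 CPM, no more than the 16.8 CPM of the microglia-like cells of that stage (6 UMIs in 37 cells, with 61.2 CPM in the highest library). Of these microglia-like cells 13 came from controls and 24 from mutants, and a level from controls alone is not given. Within the class, ePN3-like neurons held 52.0, 30.9 and 7.87 CPM, with a UMI in 7.32%, 4.71% and 6.94% of cells before thinning, while ePN1-like, ePN2-like and migrating neuron-like cells held at most 6.22 CPM in a control library. At P5 the unipolar brush cell-like cells held 43.8 and 45.9 CPM of *Nts*, and granule lineage-like cells, 13 in library 1 and 714 in library 2, held 0 and 1.03.

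*Grp*, gastrin-releasing peptide, was highest in unipolar brush cell-like cells at E18.5 and P5. At E14.5 it was low and highest in the Lhx2/Lhx9 neuron-like cluster 25 (*Hoxc6*, *Hoxa7*), at 47.5, 38.7 and 28.6 CPM in controls. E18.5 cluster 5 (*Calb2*, *Samd3*) held 397, 208 and 154 CPM in controls and 317, 262 and 151 in mutants, and in controls 76.3% of all *Grp* UMIs. At P5 cluster 5 (*Eomes*, *En2*) held 2487 and 2909 CPM, while cluster 10, the other unipolar brush cell-like cluster (*C130073E24Rik*, *Neurod1*), held 77.2 and 76.3. A *Grp* UMI was found in 75.7% of thinned cells of P5 cluster 5 and in 0.559% of microglia-like cells. Of thinned P5 unipolar brush cell-like cells with an *Adcyap1* UMI, 82.2% ± 7.12 (SD, n = 2) also had *Grp*, against 49.4% ± 2.63 of those without. Of those with a *Pnoc* UMI 35.7% ± 2.16 had *Grp*, against 57.2% ± 4.94 of those without. These shares were taken over clusters 5 and 10 together, which differ in *Grp*. The part of that difference in the shares was not tested.

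*Cck* and *Crh* encode cholecystokinin and corticotropin-releasing hormone. At E14.5 *Cck* was uneven between libraries, at 146 ± 145 CPM (SD, n = 3 controls) in the Lhx2/Lhx9 neuron-like cluster 26 and at 106, 32.2 and 219.7 CPM in the unnamed cluster 7 (*Foxb1*, *Hoxb5*), which held 35.1% of its UMIs. At E18.5 *Cck* was highest in cluster 23 (*Meis2*, *Zfhx3*), at 138, 60.4 and 223 CPM in controls, and this cluster of 1.82% of control cells held 80.9% of its UMIs. At P5 the inhibitory neuron-like cells held 50.3 and 116 CPM. *Crh* was found at E18.5 mostly in PN-like cells, which held 92.3% of its UMIs, with 61.7, 83.5 and 37.6 CPM in ePN1-like neurons of controls. At P5 no pontine subtype held more than 8.13 CPM, and inhibitory neuron-like cells held 16.1 and 98.0, from 83 cells in all.

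**Figure D3:**
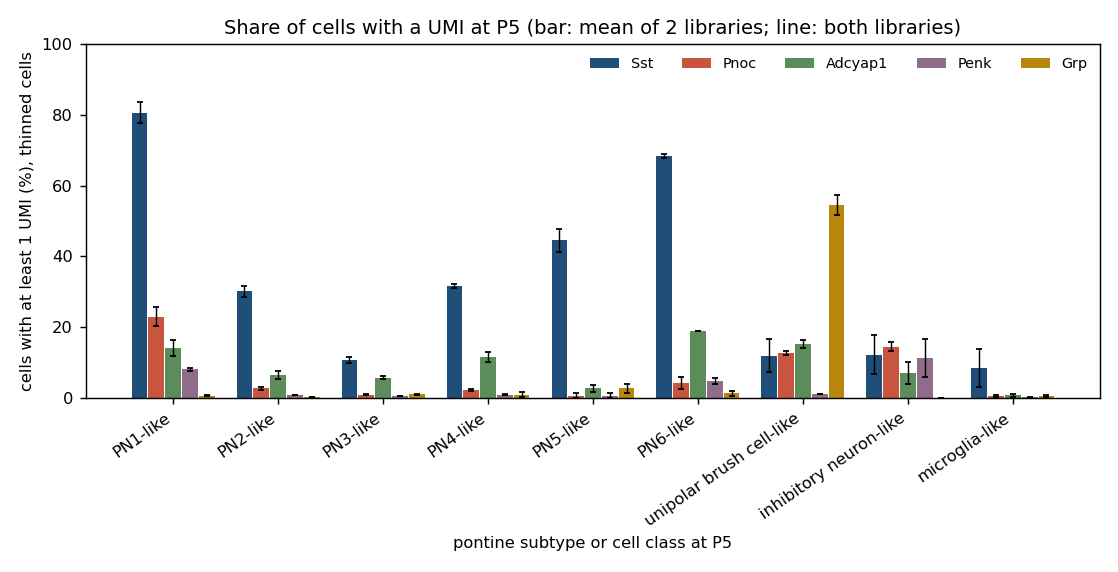
Share of thinned cells (vertical, percent) with at least 1 UMI of *Sst*, *Pnoc*, *Adcyap1*, *Penk* or *Grp* in the 6 pontine subtypes and in 3 other classes at P5 (horizontal). Bars are means of 2 libraries and lines join the values of both, and microglia-like cells give the level of free RNA, which reaches 13.9% for *Sst* in 1 library and at most 1.07% for the other 4 genes.

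Between E14.5 and E18.5 *Sst* and *Adcyap1* fell in control hindbrains and *Cartpt* and *Nts* rose. In all sorted cells *Sst* went from 136, 270 and 205 CPM to 49.6, 44.0 and 90.5, and *Adcyap1* from 76.6, 59.2 and 41.9 to 11.5, 10.9 and 15.4. *Cartpt* went from 27.6, 9.54 and 16.0 CPM to 80.5, 72.1 and 83.3, and *Nts* from 5.12, 1.43 and 9.98 to 139, 176 and 146. In none of the 4 genes did the stages overlap. The log2 changes were -1.81 (SE 0.36, adjusted p = 0.00538), -2.31 (SE 0.23), 2.08 (SE 0.34) and 4.70 (SE 0.65) by edgeR's quasi-likelihood test. All 4 members tested of 10 were called, against 51.5% of all genes tested. *Sst* was under the filter at E18.5, and *Cartpt* and *Nts* at E14.5, so these 3 were tested only through the stage where they were high, and nothing is read from the count. In sums over all cells, fewer cells of a type and less RNA per cell cannot be told apart. E14.5 control replicates 1 and 2 came from Cell Ranger 3.1.0 and all E18.5 controls from 5.0.1. Version therefore overlapped in part with stage, here and in the comparison within PN-like cells. PN-like cells were 20.2% of control cells at E14.5 and 11.3% at E18.5, and granule lineage-like cells 8.83% and 61.7%.

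Within PN-like cells *Sst* took the opposite course. It rose from 23.3, 26.6 and 59.3 CPM at E14.5 to 267.5, 169 and 269 at E18.5, a log2 change of 2.57 (SE 0.44, adjusted p = 0.00358), while *Adcyap1* fell from 159, 166 and 123 CPM to 50.4, 41.0 and 44.0, a log2 change of -1.83 (SE 0.13, adjusted p = 8.757e-06, edgeR). Both of the 2 members tested in these cells were called, against 63.5% of all genes tested. The higher *Sst* was not shared by all states of E18.5 controls. ePN2-like neurons held 570 ± 134 CPM (SD, n = 3), unnamed PN-like cells 198 ± 104, migrating neuron-like cells 70.0 ± 31.4 and ePN3-like neurons 34.2 ± 19.1. Differentiated neuron-like cells of E14.5 controls held 72.6 ± 27.1 CPM. The ePN1-like values are given above. The share of progenitors in the class also changed between stages. Progenitor-like cells were 8.07% ± 3.27 of PN-like cells in E14.5 controls (SD, n = 3), and no E18.5 state was given that name. Intermediate progenitor-like cells went from 8.47% ± 2.75 to 1.79% ± 1.11. All 6 PN progenitor genes tested fell, but 3 of them were tested only through E14.5, so nothing is read from this count. The part of the progenitor share in the *Sst* and *Adcyap1* values was not tested. P5 values, from another dissection, were 611 and 706 CPM for *Sst* and 38.0 and 43.5 for *Adcyap1* in PN-like cells.

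Other peptide genes were tested in PN-like cells over the same interval, in which 63.5% of all genes were called. Of 33 other neuropeptide and granin precursors 7 were measured well enough to test, and 4 rose and 1 fell. *Scg2* (2.67) and *Vgf* (2.46), which encode granule proteins cut into peptides, rose most, and *Pomc* fell by 1.32. Of 11 peptide processing genes 9 were tested, and 6 rose and 1 fell. They included *Qpct* (2.00), which forms the pyroglutamate end of peptides such as neurotensin, *Cadps2* (1.76) and *Cadps* (1.03), which prime dense-core vesicles, and the convertase *Pcsk2* (0.85). Of 25 receptor and binding protein genes 7 were tested, and 2 rose and 1 fell: the bombesin receptor gene *Grpr*, from at most 0.0546 CPM in a library to 9.198 to 15.3, and the nociceptin receptor gene *Oprl1* (0.87) rose, and the somatostatin receptor gene *Sstr2* fell by 2.85. *Gad2* rose by 3.04 in the same cells. *Scg2*, *Vgf*, *Qpct*, *Cadps2*, *Grpr* and *Gad2* passed the filter on low counts only at E18.5, and *Pomc* only at E14.5, so their direction was fixed in part by the filter and nothing is read from the counts of these lists. At P5 *Sstr2* stood at 1.19 CPM in PN-like cells and at 72.5 CPM in unipolar brush cell-like cells.

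The comparison of *Atoh1*S193A/- with control embryos asked whether partial loss of *Atoh1* function altered these genes. In all sorted cells no member was called. At E14.5 the 2 members that passed the filter on low counts, *Sst* and *Adcyap1*, had log2 changes of -0.23 (SE 0.32) and -0.27 (SE 0.24), and 0.0195% of all genes were called (2 of 10241). At E18.5 *Adcyap1* (-0.07, SE 0.16), *Cartpt* (0.52, SE 0.33) and *Nts* (0.63, SE 0.46) were tested, and 0% of 9883 genes were called by edgeR, with 117 at an unadjusted p under 0.05 and 13 called by DESeq2. The difference in genotype effect between stages was tested for *Sst*, *Adcyap1*, *Cartpt* and *Nts*, with 0% of 10533 genes called (791 at an unadjusted p under 0.05, 71 by DESeq2). Its largest value was -2.03 for *Nts* (SE 1.48, adjusted p = 0.803, edgeR). Without mutant replicate 1 the E18.5 change of *Nts* was -0.15, and without mutant replicate 3 that of *Cartpt* was 0.096. Under a block for litter 1826 genes were called at E14.5, 37 at E18.5 and 1565 between stages, none of them a member.

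In PN-like cells at E14.5 *Adcyap1* was the member nearest to a call. Controls held 159, 166 and 123 CPM and mutants 116, 128 and 97.0, so that the mutant was lower in 3 of 3 littermate pairs while the groups overlapped (149 ± 22.9 against 114 ± 15.7, SD, n = 3, p = 0.2 by a two-sided exact permutation test). The log2 change was -0.43 (SE 0.14, adjusted p = 0.1001, edgeR), and a fit that blocked on litter gave -0.43 (SE 0.05, adjusted p = 0.0007212), which was called, as it was by DESeq2 (adjusted p = 0.0296). Without the 2 control libraries that had been processed with another Cell Ranger version, which leaves 1 control against 3 mutants and assumes that it varies as they do, it was -0.18 (adjusted p = 0.59). Among all genes 7.58% were called in these cells.

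The make-up of the PN-like class differed between genotypes at the same time. Progenitor-like cells were 7.64%, 11.5% and 5.03% of PN-like cells in controls and 26.5%, 32.5% and 27.9% in mutants. Of 6 cycling markers tested 5 rose, with 3 of the 6 tested only through the mutant. Of 4 glial markers tested 3 rose, with 1 of the 4 tested only through the mutant. All 3 glutamatergic markers tested fell. In these cells 7.58% of all genes were called. The filter fixed the direction of some markers in part, so nothing is read from these counts. Within migrating neuron-like cells *Adcyap1* stood at 372, 205.7 and 243 CPM in controls and 359, 224 and 277 in mutants. In differentiated neuron-like cells it stood at 173.5, 248 and 112.5 CPM in controls and 176, 260.5 and 135 in mutants. The genotypes overlapped in both states, and neither mean was lower in the mutant. The part of the class make-up in the *Adcyap1* value of PN-like cells was not tested. *Sst* in PN-like cells at E14.5 stood at 23.3, 26.6 and 59.3 CPM in controls and 29.1, 10.3 and 21.4 in mutants (log2 change -0.89, SE 0.50, adjusted p = 0.332, edgeR), and without control replicate 3 the change was -0.31.

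A few other peptide genes were called in the mutant PN-like cells at E14.5, where 7.58% of all genes were. Of the 6 tested precursors the granins *Chga* (-0.71) and *Chgb* (-0.42), storage proteins of the dense-core vesicle, fell and none rose. Of 7 tested processing genes the carboxypeptidase *Cpe* (-0.44) and *Cadps* (-0.52) fell and none rose. Among 5 tested receptor genes *Adcyap1r1*, the PACAP receptor gene, rose by 0.93 on the log2 scale (SE 0.18, adjusted p = 0.0245, edgeR), and the transporter gene *Slc17a6* fell by 0.53. The median of the processing genes, all of which passed the filter in both genotypes, was -0.44, against -0.0002 for all genes. The progenitor share given above moved with these genes, and its part in them was not tested.

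Within single pontine states, 4 pairs of a member and a state reached 10 CPM at E14.5 and 11 at E18.5. In 1 of each the libraries of the genotypes did not overlap, against 8.4% of all gene and state pairs at E14.5 and 9.2% at E18.5. *Sst* in E14.5 migrating neuron-like cells was 21.5, 18.3 and 39.0 CPM in controls and 14.52, 13.7 and 13.4 in mutants. *Adcyap1* in E18.5 migrating neuron-like cells was 69.5, 65.9 and 74.5 in controls and 54.5, 47.0 and 47.0 in mutants, 69.9 ± 4.33 against 49.5 ± 4.34 (SD, n = 3). Each gave p = 0.1 by the two-sided exact permutation test, the smallest that 3 against 3 can give. *Crh* in ePN1-like neurons was 61.7, 83.5 and 37.6 CPM in controls and 18.3, 8.13 and 34.8 in mutants, from 33, 15 and 43 mutant cells, and did not overlap either (exact p = 0.1). It was left out of the 11 pairs because 1 mutant library held fewer than 20 such cells. ePN1-like neurons were 17.2% ± 2.88 of PN-like cells in controls and 5.83% ± 0.946 in mutants.

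In PN-like cells at E18.5 no member was called, against 0.0201% of all genes. *Sst* stood at 267.5, 169 and 269 CPM in controls and 235, 245 and 237 in mutants, a log2 change of 0.01, and in ePN2-like neurons at 654, 416 and 639 against 539, 454 and 475. *Adcyap1* had a log2 change of -0.12 (SE 0.09). *Nts* had a log2 change of 1.13 (SE 0.75, adjusted p = 0.9999, edgeR), from 14.49, 8.66 and 3.98 CPM in controls to 26.8, 4.28 and 22.7 in mutants, which overlapped. The microglia-like cells of this stage, from both genotypes together, held 16.8 CPM of *Nts*.

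**Figure D4:**
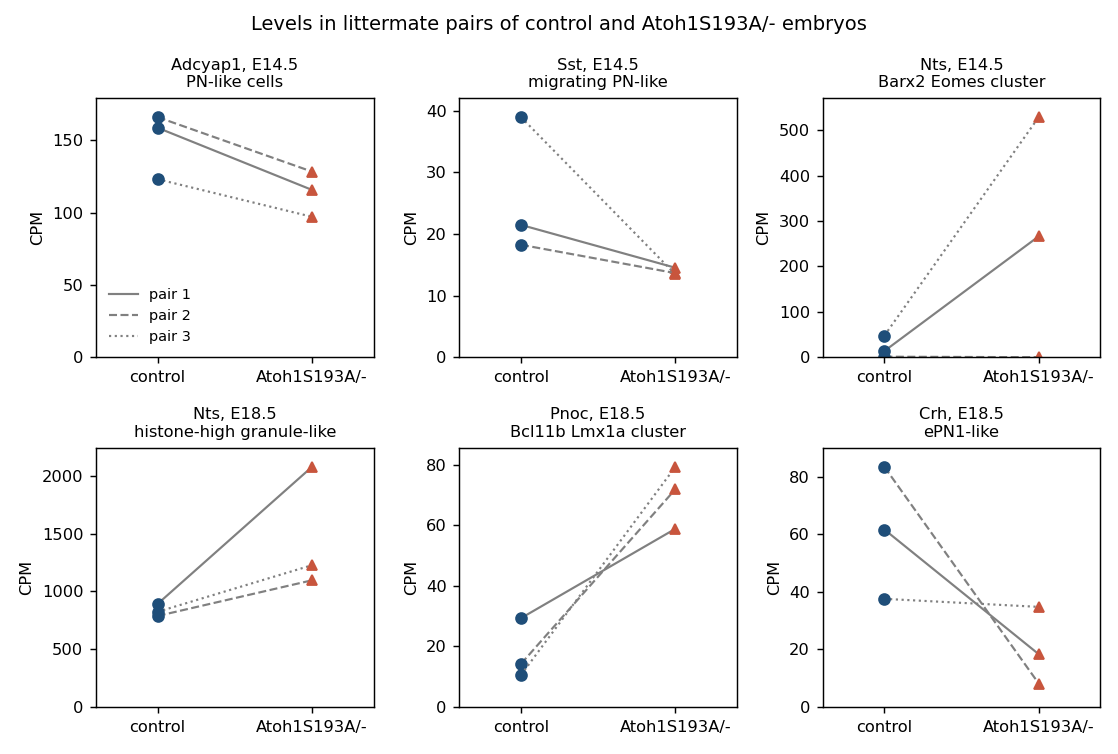
Level (vertical, CPM, axes from 0) in control (circles) and *Atoh1*S193A/- (triangles) libraries for 6 gene and cell class combinations, with lines joining littermates. *Adcyap1* in E14.5 PN-like cells falls in 3 of 3 pairs from 149 to 114 CPM in the mean, *Pnoc* in the *Bcl11b* and *Lmx1a* cluster rises in 3 of 3 from 18.0 to 70.0 CPM, and *Nts* at E14.5 rises in pairs 1 and 3 with both embryos of pair 2 near 0.

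Each member was also tested in the cluster where its mean over both genotypes was highest, among clusters with at least 20 cells in every library. At E14.5 none of 9 members was called, against 0.00639% of genes over the clusters (2013 of 78228 tests had an unadjusted p under 0.05, and DESeq2 called 31). At E18.5 1 of 9 was called, *Pnoc* in cluster 22, against 0.0494% over the clusters and 0.172% in cluster 22 itself (15 of 8726 genes). The choice of the cluster used the mutant values, so nothing is read from this count.

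*Pnoc* in cluster 22, unipolar brush cell-like cells led by *Bcl11b* and *Lmx1a*, was higher in the mutant. Controls held 29.3, 14.2 and 10.5 CPM, from 50, 15 and 14 UMIs, and mutants 58.8, 71.9 and 79.3, from 99, 18 and 41 UMIs. The groups did not overlap, and the log2 change was 1.79 (SE 0.27, adjusted p = 0.000662, edgeR; exact p = 0.1 for the single value, n = 3). In controls alone cluster 14 (18.7 CPM) was not below cluster 22 (18.0 CPM), so the mutant values decided which cluster was tested. When cells were clustered more finely, another cluster was highest in *Pnoc*, with a change of 1.19 that was not called (adjusted p = 0.991). Cluster 14, granule lineage-like and also led by *Bcl11b*, held 25.1, 18.7 and 12.2 CPM in controls and 35.5, 74.8 and 34.7 in mutants (exact p = 0.1). In all sorted cells too few had a UMI for the test. *Pnoc* there was 2.03, 1.94 and 2.65 CPM in controls and 3.89, 3.11 and 6.12 in mutants. These sums include the inhibitory neuron-like cluster 32, which had *Pnoc* among its leading genes. Cluster 32 held 1, 0 and 15 cells in controls and 15, 12 and 21 in mutants, too few to enter the choice of cluster. The part of these cells in the values of all sorted cells was not tested.

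*Nts* was higher in some mutant embryos at both stages, with large differences between litters. In E14.5 cluster 11 (*Barx2*, *Eomes*) controls held 13.6, 1.12 and 47.4 CPM and mutants 266, 0 and 529, so the second litter was near 0 in both genotypes. The log2 change was 3.44 (SE 1.64, adjusted p = 1, edgeR; exact p = 0.4, n = 3) and under a block for litter it was 3.69 (SE 0.20, adjusted p = 2.996e-05) and was called. In controls alone *Nts* was higher in cluster 2 (*Pclaf*, *Top2a*), at 35.6 against 20.7 CPM, and it passed the filter in cluster 11 only through the mutant (a UMI in 20.9% of cells, against 3.33% in controls). The mutant values thus decided which cluster was tested, and nothing is read from the call. Cluster 2 held 45.9, 12.8 and 48.1 CPM in controls and 207, 0 and 197 in mutants, which overlapped. *Cartpt* in the same cluster was also lowest in the second litter, at 41.6 and 47.7 CPM against 154 to 303 in the other 4 libraries. The second litter gave 46 and 39 cells in this cluster, against 131 to 341 in the other libraries.

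At E18.5 *Nts* in the cycling granule lineage-like cluster 11 was 892, 788 and 824 CPM in controls and 2079, 1097 and 1227 in mutants. The genotypes did not overlap, and the mutant was higher in 3 of 3 pairs, with a log2 change of 0.79 (SE 0.26, adjusted p = 0.992, edgeR; exact p = 0.1, n = 3). Without mutant replicate 1 it was 0.47 and was called (adjusted p = 0.0379). In cluster 25, where *Nts* was highest, controls held 3393, 4766 and 3830 CPM and mutants 6187, 5260 and 6860 (exact p = 0.1). Mutant replicate 1 held 230 cells of this cluster against 15 to 75 in the other libraries, and its *Nts* in all sorted cells was 446 CPM, against 129 to 176 in the other 5.

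The remaining members in their highest clusters overlapped between genotypes or missed the call. *Sst* had a log2 change of 0.23 (SE 0.13) in E14.5 cluster 22 and of -0.05 (SE 0.47) in E18.5 cluster 23. *Adcyap1* in E18.5 cluster 24 (*Crabp1*, *Robo3*) was 58.9, 54.6 and 73.0 CPM in controls and 41.6, 47.8 and 55.7 in mutants (-0.45, SE 0.19, adjusted p = 0.9997, edgeR). *Pnoc* in E14.5 cluster 23 (*Gata3*, *Sox14*) was 267, 185 and 168 CPM in controls and 138, 148 and 192 in mutants (-0.38, SE 0.17), and *Penk* in E18.5 cluster 23 had a log2 change of -0.35 (SE 0.66). The changes of *Npy*, *Cartpt*, *Grp*, *Cck* and *Crh* in these clusters ranged from -0.60 for *Npy* to 0.37 for *Crh*, which at E18.5 passed the filter only through the mutant.

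The genes whose levels were most like those of each member were sought over 102 clusters of the 3 stages in controls, among 14746 genes, as Pearson's r of log2(CPM + 1), a description over clusters that share libraries. *Sst* was nearest to *Zcchc12* (0.85), *Ccdc184* (0.84) and *Fam19a2* (0.84), *Adcyap1* to *Nefl* (0.81), *Efna3* (0.78) and *Tubb3* (0.78), and *Npy* to *Hoxb8* (0.77), *Tfap2b* (0.75) and *Hoxb6* (0.74). *Nts* was nearest to *Tph1* (0.78), *Gm4792* (0.72) and *Rassf9* (0.67), *Cartpt* to *Has3* (0.75), *Cplx2* (0.69) and *Ndst3* (0.68), *Grp* to *Trpc5* (0.75), *Dclk3* (0.72) and *Htr5a* (0.68), and *Cck* to *Cpne4* (0.74), *Lhx2* (0.72) and *Fam159a* (0.71). The 3 with the weakest likeness were *Pnoc* with *Krt222* (0.64), *Atp6v1g2* (0.63) and *Pitpnc1* (0.62), *Crh* with *Kif17* (0.63), *Gpr139* (0.62) and *Met* (0.61), and *Penk* with *1500035N22Rik* (0.62), *Kl* (0.61) and *Col8a1* (0.60). Among the members themselves *Npy* and *Cck* (0.60), *Sst* and *Adcyap1* (0.54) and *Sst* and *Pnoc* (0.48) were most alike, and *Sst* and *Cartpt* (-0.30) least.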

How the data were processed

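The authors deposited, for each of the 14 libraries, a matrix of UMI counts per gene and cell barcode from Cell Ranger, aligned to mm10 with WPRE added. Per the file headers, 2 libraries (E14.5 control replicates 1 and 2) came from version 3.1.0 and 12 from 5.0.1, and the submitters' notes name 5.0.1. The matrices were used as counts.

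Barcodes needed at least 1000 genes and less than 5% of UMIs from mitochondrial genes, and Scrublet's highest-scoring 7.5% in each library were discarded as doublets. Each stage was clustered with scanpy 1.11.5 (2000 variable genes, 30 components, 15 neighbours, Leiden resolution 1 with leidenalg 0.10.2). The 10 genes were left out, with the lists of other precursor, processing, receptor and transmitter genes, sex-linked genes, WPRE and mitochondrial genes. Naming markers outside these lists could enter the clustering. Clusters and pontine states were named from fixed markers; the pontine subtype markers were chosen by the study on these samples, so the rebuilt names may differ from its own. Levels (CPM) are counts summed per library and class and scaled to the same total, and cluster levels needed 20 cells in a library. Shares were taken after thinning each cell to 3000 UMIs.

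Sums were tested with edgeR 4.0.16 in R 4.3.3 (quasi-likelihood, TMM, Benjamini-Hochberg over all genes tested), for genes with a UMI in 10% of cells of a group, and called at adjusted p under 0.05 and an absolute log2 change over 0.25. DESeq2 1.42.0 was an alternative. Per the labels a mutant embryo was collected with a littermate control; embryos of 1 number were treated as such a pair, and deviations of same-numbered libraries correlated at 0.53, 0.82 and 0.74 at E14.5 and 0.78, 0.82 and 0.92 at E18.5; the fit with this block was an alternative. Other alternatives were other size factors and filters, 10% mitochondrial UMIs, no removal of doublets, Leiden resolution 2, no thinning, and leaving out each library or those of the other Cell Ranger version. Exact intervals and limits for a count of 0 cover counting error only. The fit was tested on simulated data.

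Log2 changes of members come from comparisons where they passed the filter, at most the 5 called genes of each list with the largest change were named, and the 3 most alike genes of each member. The members and lists were chosen with earlier results of these data known. P5 values come from 2 pooled libraries without mutants. The E14.5 value of *Penk* in its highest cluster is not reported here.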

Additional observations from a re-analysis of the deposited data

How the results depend on the processing

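Of 498 values of single members recomputed under an alternative, 459 kept their direction and side of the threshold, 4 passed it and 1 lost it, all named above, and 34, none of them called before or after, changed sign. Without the libraries of the other Cell Ranger version *Adcyap1* in all sorted cells at E14.5 was 0.18 and *Cck* in its E14.5 cluster -0.66. The other sign changes came from leaving out single libraries, which gave in all sorted cells -0.51 to 0.024 for *Sst* at E14.5, -0.15 to 0.92 for *Nts* and -0.17 to 0.11 for *Adcyap1* at E18.5, and between stages -0.66 to 0.55 for *Cartpt* and -0.23 to 0.50 for *Sst*. In PN-like cells at E18.5 *Sst* ranged from -0.17 to 0.14. In the clusters of highest level the ranges at E14.5 were -0.30 to 1.11 for *Cck*, -0.27 to 0.72 for *Cartpt*, -0.094 to 0.21 for *Adcyap1* and -0.48 to 0.70 for *Grp*, and at E18.5 -0.32 to 0.45 for *Grp*, -0.082 to 0.46 for *Cartpt*, -0.25 to 1.64 for *Crh*, -1.38 to 0.10 for *Penk*, -1.04 to 0.39 for *Cck* and -0.63 to 0.26 for *Sst*. The number of genes called moved more. In all sorted cells at E14.5 it was 2, and became 1 with DESeq2 size factors, 250 with the DESeq2 test, 0 with filterByExpr, 0 without the libraries of the other Cell Ranger version, 11 with up to 10% mitochondrial UMIs, 0 with doublets kept, and 0 to 1 leaving out single libraries. In all sorted cells at E18.5 it went from 0 to 13 with DESeq2, and stayed 0 leaving out single libraries. Between stages it went from 0 to 71 with DESeq2, 6 with up to 10% mitochondrial UMIs, 1 with doublets kept, and 0 to 1 leaving out single libraries. In PN-like cells at E14.5 it went from 764 to 1356 with DESeq2, 354 without the other Cell Ranger version and 114 to 608 leaving out single libraries, and at E18.5 from 2 to 10 with DESeq2, 18 without a filter and 0 to 2. In the clusters of highest member level at E14.5 it went from 5 to 31 with DESeq2, 186 without a filter, 3 without the other Cell Ranger version, 31 at Leiden resolution 2 and 2 to 15, and at E18.5 from 33 to 216 without a filter, 103 at resolution 2 and 15 to 49. With the replicate block, the pairing of littermates, the counts in the order given were 1826, 37, 1565, 2629, 65, 406 and 208, and it changed no member's call other than those of *Adcyap1* and *Nts*. The stage comparisons gave 4076 to 5307 calls in all sorted cells and 5723 to 6639 in PN-like cells. The cause of these differences was not tested.

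Without thinning, the share of cells with a UMI was 73.9% for *Sst* in E14.5 cluster 22 (59.3% thinned), 39.3% for *Pnoc* and 27.4% for *Penk* in P5 cluster 26 (14.51% and 11.3%), 85.2% for *Adcyap1* in E14.5 cluster 19 (55.8%), 24.4% for *Npy* in E14.5 cluster 18 (21.0%), 83.5% for *Cartpt* in E18.5 cluster 16 (62.8%), 83.3% for *Nts* in E18.5 cluster 25 (75.8%), 78.9% for *Grp* in P5 cluster 5 (75.7%) and 7.38% for *Crh* in P5 cluster 26 (3.63%).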

Other observations

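Several members met in 1 small cluster at E18.5. Cluster 23 (*Meis2*, *Zfhx3*), 1.82% of control cells, held 83.0% of the *Npy*, 80.9% of the *Cck*, 37.5% of the *Penk* and 34.4% of the *Sst* UMIs of that stage. *Npy* there stood at 8.76, 125 and 39.9 CPM in controls and 66.6, 359 and 162 in mutants, too few cells with a UMI for the test.

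*Penk* was also found outside neuron-like clusters. E14.5 cluster 27, led by the choroid plexus genes *Ttr* and *Kcne2*, was 0.495% of control cells and held 27.8% of the *Penk* UMIs. At P5 cluster 27, led by *Col1a2* and *Vtn*, held 86.9 ± 11.2 CPM (SD, n = 2).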
